A study of Mus musculus with 10 samples.

Results

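The receptors for IL-33, IL-18 and IL-1 lie side by side on mouse chromosome 1, and the accessibility of this gene cluster was followed in regulatory T cells (Tregs) of spleen and lung that carried or lacked Vps34. The 6 genes, all on the plus strand of GRCm38, are Il1r2 (chr1:40074079-40125231), Il1r1 (chr1:40225080-40317257), Il1rl2 (chr1:40324610-40367562), Il1rl1 (chr1:40429570-40465415), Il18r1 (chr1:40465552-40500854) and Il18rap (chr1:40515362-40551705). Every ATAC-seq peak that lay in the body of 1 of these genes or within 10 kb of it was taken as a member, which gave 35 peaks of the 97385 in the count table. By gene, 6 peaks belonged to Il1r2, 10 to Il1r1, 2 to Il1rl2, 9 to Il1rl1, 8 to Il18r1 and 5 to Il18rap, and 5 of the 35 peaks counted under 2 neighbouring genes. Peaks are named below by the distance of their centre from the distal annotated start of Il1rl1.

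The study asked how Vps34, the class III phosphatidylinositol 3-kinase encoded by Pik3c3, shapes chromatin of perinatal Tregs. CD4+Foxp3-YFP+TCRb+ cells were sorted from 10-day-old mice that all carried Foxp3Cre, in which Cre is made only in Foxp3-expressing cells. Control mice were Foxp3Cre with Pik3c3+/+ or Pik3c3+/fl, and Vps34-deficient mice were Foxp3Cre Pik3c3fl/fl, so that a control library may stem from a heterozygous mouse. By the sample labels, spleen gave 2 control and 4 Vps34-deficient libraries and lung gave 2 of each. In the methods of the study the spleen numbers of control and mutant are swapped. The labels were followed, and every spleen genotype value and every comparison of tissues within a genotype rests on them. So do the effects averaged over tissues or genotypes and the interaction. Nothing in the labels ties a lung library to the spleen library of the same mouse, nor says whether mice were pooled, so that p-values measure the spread between these libraries.

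IL-1 family receptors work in pairs, in which a ligand-binding chain recruits a signalling partner and the shared cytoplasmic domain passes the signal through MyD88 and IRAK kinases to NF-kB. Il1rl1 encodes ST2, the IL-33 receptor, which marks many tissue Tregs and is also made as a soluble decoy. Il18r1 and Il18rap encode the ligand-binding and accessory chains for IL-18, Il1r1 the signalling receptor and Il1r2 the decoy receptor for IL-1, and Il1rl2 the receptor for the IL-36 cytokines.

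The 6 sequences below carry the changes described later. The first 2 lie in the intergenic interval between Il1rl2 and Il1rl1, where accessibility fell in Vps34-deficient cells of both tissues. The next 2 lie just upstream of Il1rl1 and at its distal start, and the last 2 are an intron of Il18r1 and the bases before the Il18rap start, all of which fell in Vps34-deficient lung cells. Each is the plus strand of GRCm38, 5′ to 3′, as the central 300 bases of the peak or, at the 2 starts, the bases of the peak that precede the start (300 at Il1rl1 and 280 at Il18rap). Capitals mark matches on either strand to AP-1 letters (TGA and TCA around 1 base of any kind), GATA letters (AGATAA), NF-kB letters (GGGA and CC around 4 bases of any kind) and STAT letters (TTC and GAA around 3 bases of any kind), and the Il18rap stretch held none of these.
Peak at -36.1 kb, chr1:40393325-40393624: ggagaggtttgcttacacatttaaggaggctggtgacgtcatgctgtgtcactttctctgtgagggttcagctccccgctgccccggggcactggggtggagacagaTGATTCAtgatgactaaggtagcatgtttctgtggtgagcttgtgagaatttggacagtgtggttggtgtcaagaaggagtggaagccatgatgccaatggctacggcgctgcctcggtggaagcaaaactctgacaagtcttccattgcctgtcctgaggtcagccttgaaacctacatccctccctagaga
Peak at -31.9 kb, chr1:40397474-40397773: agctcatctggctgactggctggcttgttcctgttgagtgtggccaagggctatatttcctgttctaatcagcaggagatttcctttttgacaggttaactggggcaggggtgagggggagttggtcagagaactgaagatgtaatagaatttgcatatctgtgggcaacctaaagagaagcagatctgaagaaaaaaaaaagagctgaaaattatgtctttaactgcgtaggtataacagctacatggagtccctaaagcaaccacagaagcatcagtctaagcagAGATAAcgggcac
Peak at -2.1 kb, chr1:40427328-40427627: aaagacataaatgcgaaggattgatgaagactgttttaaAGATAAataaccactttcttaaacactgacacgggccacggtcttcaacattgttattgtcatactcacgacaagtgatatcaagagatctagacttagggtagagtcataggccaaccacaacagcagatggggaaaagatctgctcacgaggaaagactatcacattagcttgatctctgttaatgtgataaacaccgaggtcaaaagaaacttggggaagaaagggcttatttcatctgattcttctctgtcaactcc
Peak at -0.3 kb, before the distal Il1rl1 start, chr1:40429270-40429569: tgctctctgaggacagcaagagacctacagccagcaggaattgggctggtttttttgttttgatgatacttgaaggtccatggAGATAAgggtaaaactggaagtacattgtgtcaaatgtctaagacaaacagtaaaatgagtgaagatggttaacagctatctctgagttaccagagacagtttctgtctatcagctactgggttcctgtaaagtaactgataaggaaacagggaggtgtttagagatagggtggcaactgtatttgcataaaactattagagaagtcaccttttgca
Peak at 50.1 kb, Il18r1 intron, chr1:40479542-40479841: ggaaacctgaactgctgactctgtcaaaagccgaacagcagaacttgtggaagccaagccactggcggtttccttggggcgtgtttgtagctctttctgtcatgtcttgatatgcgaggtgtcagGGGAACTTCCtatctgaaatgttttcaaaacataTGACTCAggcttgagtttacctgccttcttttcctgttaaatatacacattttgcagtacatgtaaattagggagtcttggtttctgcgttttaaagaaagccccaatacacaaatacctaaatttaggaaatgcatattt
Peak at 85.7 kb, before the Il18rap start, chr1:40515082-40515361: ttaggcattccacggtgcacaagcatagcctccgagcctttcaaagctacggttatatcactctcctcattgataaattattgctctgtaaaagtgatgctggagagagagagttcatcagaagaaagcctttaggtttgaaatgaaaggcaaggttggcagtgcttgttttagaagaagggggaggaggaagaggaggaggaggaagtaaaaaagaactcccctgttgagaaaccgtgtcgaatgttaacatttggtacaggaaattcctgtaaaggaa

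The 10 libraries held between 9405823 and 22439699 counts in peaks, of which 1226 to 3046 fell in the 35 member peaks, and all levels are given as CPM, the count of a peak over the library total, times 1000000. Treg identity was read from the peaks at the starts of Foxp3, Il2ra, Ctla4, Ikzf2, Cd4 and Cd3e: all 6 had one, with a summed level between 219.5 and 290.3 CPM in each library. Of the lists of other cell types, 3 had sums that did not overlap between genotypes in lung and 2 in spleen, with the mast cell and basophil list among both. Pairs of 2 libraries can lie apart without any difference, and how often other features did so was not counted. The mast cell and basophil list had a start peak at 1 of 4 genes (Kit, with none at Cpa3, Ms4a2 or Fcer1a) and a sum of 20.4 and 21.1 CPM in spleen controls, 26.2 to 27.3 CPM in spleen Vps34-deficient libraries, 14.3 and 19.99 CPM in lung controls and 25.4 and 31.3 CPM in lung Vps34-deficient libraries. The CD8 and NK list (2 of 4 genes, none at Ncr1 or Klrb1c) summed to 11.7 and 14.8 CPM, 11.6 to 16.2 CPM, 8.19 and 10.6 CPM, and 13.3 and 19.9 CPM in the same order, and the myeloid list (2 of 4 genes, none at Lyz2 or Csf1r) to 7.64 and 8.73 CPM, 5.29 to 8.85 CPM, 10.2 and 10.7 CPM, and 6.35 and 6.82 CPM. Within the CD8 and NK list, Cd8a gave 9.525 CPM in lung Vps34-deficient replicate 2, 1.62 CPM in replicate 1 and 1.49 and 1.83 CPM in lung controls. Cd8b1 gave 11.7 and 10.4 CPM in lung Vps34-deficient libraries and 9.14 and 6.35 CPM in lung controls. The lung epithelium list (3 of 4 genes, none at Sftpc) was apart in spleen, with 34.1 and 35.5 CPM in controls and 28.3 to 32.4 CPM in Vps34-deficient libraries, and gave 25.1 and 30.9 CPM in lung controls and 26.6 and 26.7 CPM in lung Vps34-deficient libraries. Their part in the results was not tested. The 6 peaks of Pik3c3 did not check the genotype labels, and so did not settle the spleen numbers, since none was called in either tissue and its start peak ranged from 52.5 to 67.3 CPM. A lower signal can come from fewer cells that hold a site open or from less opening per cell, and these cannot be told apart in bulk libraries.

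Summed over its peaks, each gene from Il1rl1 to Il18rap was more accessible in both lung control libraries than in any other library, and the groups were not separated in this way from Il1r2 to Il1rl2. The Il1rl1 sum was 40.2 and 42.5 CPM in spleen controls, 31.4 to 37.7 CPM in spleen Vps34-deficient libraries, 54.9 and 80.9 CPM in lung controls, and 44.7 and 34.3 CPM in lung Vps34-deficient libraries. The group means were 41.4 ± 1.59 CPM (SD, n = 2), 35.2 ± 2.77 CPM (n = 4), 67.9 ± 18.4 CPM (n = 2) and 39.5 ± 7.34 CPM (n = 2). Lung controls stood above all other libraries, and of the lung Vps34-deficient pair 1 lay within the spleen range and 1 just above it. The peaks at 36.1, 40.5 and 44.3 kb, which lie in Il18r1 and count under both genes, carried much of this sum, so that it is not a level of Il1rl1 alone. Their means were 12.5, 6.57 and 11.1 CPM in spleen controls, 11.2, 5.70 and 9.65 CPM in spleen Vps34-deficient libraries, 12.3, 12.4 and 14.8 CPM in lung controls, and 11.5, 6.60 and 11.8 CPM in lung Vps34-deficient libraries. Il18r1 gave 68.9 and 71.7 CPM in spleen controls, 60.9 to 69.9 CPM in spleen Vps34-deficient libraries, 93.2 and 111 CPM in lung controls and 74.2 and 68.5 CPM in lung Vps34-deficient libraries. Il18rap, the least accessible of the 3 with 9.26 CPM per kb of peak in lung controls against 20.7 for Il1rl1 and 32.5 for Il18r1, gave 13.8 and 16.2 CPM in lung controls and 7.63 and 8.15 CPM in lung Vps34-deficient libraries.

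At the other end, control and Vps34-deficient libraries of lung overlapped for Il1r2 and Il1r1. The Il1r2 sum was 13.6 and 24.8 CPM in lung controls and 16.6 and 21.4 CPM in lung Vps34-deficient libraries, and the Il1r1 sum was 24.0 and 26.2 CPM against 27.5 and 24.1 CPM. The Il1rl2 sum was 7.41 to 9.88 CPM in the 4 lung libraries and 10.1 to 13.4 CPM in the 6 spleen libraries, so that the tissues did not overlap. Taken as 2 sides, the 16 peaks of Il1r2, Il1r1 and Il1rl2 had a Vps34-deficient to control ratio of 1.01 in lung and 1.14 in spleen, while the 19 peaks of Il1rl1, Il18r1 and Il18rap had 0.609 and 0.897. Across the 10 libraries, the log2 sums of Il1rl1 and Il18r1 moved together (Pearson r = 0.95, a description over libraries of 4 groups, and 3 peaks count under both genes), those of Il18r1 and Il18rap, which share no peak, had r = 0.87, and those of Il1rl1 and Il1r1 had r = -0.036.

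**Figure D1:**
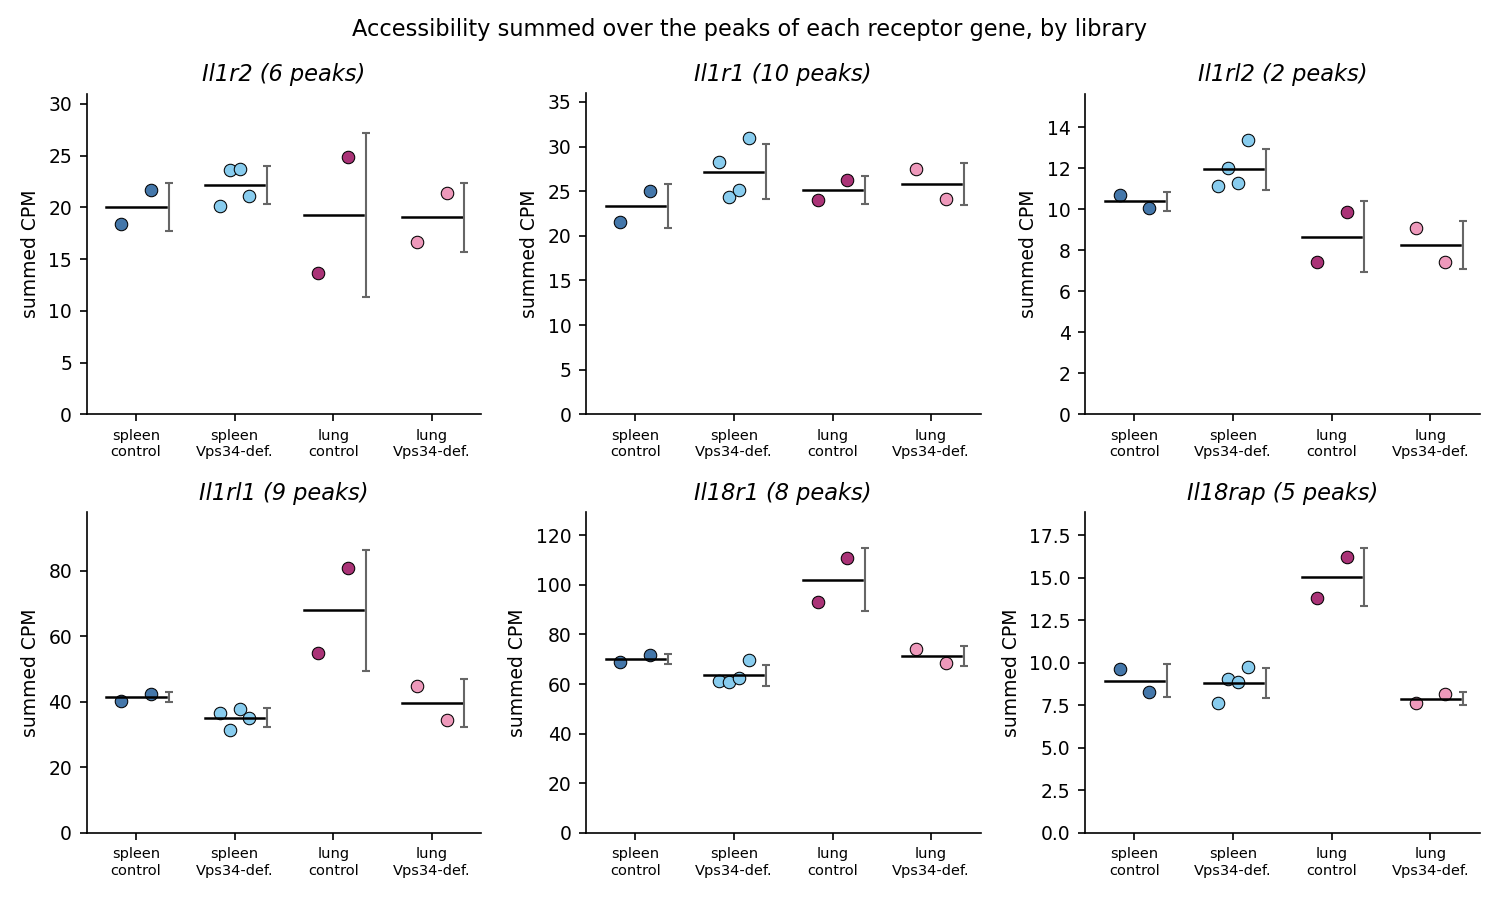
Accessibility of each receptor gene, as CPM summed over its peaks (y axis, from 0), in the 2 control and 4 Vps34-deficient libraries of spleen and the 2 of each genotype of lung. Points are libraries, lines are means and whiskers are SD; both lung controls lie above all other libraries for Il1rl1, Il18r1 and Il18rap, from 54.9 CPM upward for Il1rl1, and within the other groups for Il1r1.

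Lung and spleen control Tregs were compared first, to see where the cluster differed by tissue in cells that have Vps34. Of the 35 member peaks, 10 were more accessible in lung and 0 were less accessible, at an adjusted p below 0.05 by edgeR's quasi-likelihood test with a log2 fold change above 0.5. Over all 97109 tested peaks, 11.8% were called higher and 3.53% lower in the same comparison. The 10 peaks all lay on the side from Il1rl1 to Il18rap, and 5 counted under Il1rl1, 3 under Il18r1 and 3 under Il18rap, with 1 of them counted under both Il1rl1 and Il18r1. The member median of the log2 fold change was 0.62, against 0.04 over all tested peaks.

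The steepest tissue difference stood 4.0 kb upstream of Il1rl1 (chr1:40425451-40425720). This peak gave 0.624 and 0.344 CPM in spleen controls and 3.30 and 4.87 CPM in lung controls, so that the groups did not overlap, and the log2 fold change was 3.10 (SE 0.54, adjusted p = 0.000425 by edgeR). These levels were 14 and 5 counts in spleen controls and 31 and 69 counts in lung controls, so that the size of the fold rests on few counts in spleen. In spleen Vps34-deficient libraries it ranged from 0.367 to 0.695 CPM, within reach of the spleen controls, and in lung Vps34-deficient libraries it gave 1.62 and 1.06 CPM, between the tissues. The peak at -2.1 kb (chr1:40427298-40427659) rose from 2.85 and 4.55 CPM to 6.59 and 13.2 CPM (log2 fold change 1.53, SE 0.34, adjusted p = 0.00331 by edgeR). Within Il18r1, whose product binds IL-18, the intronic peak at 50.1 kb (chr1:40479431-40479953) rose from 15.7 and 17.0 CPM to 28.1 and 28.3 CPM (0.86, SE 0.19, adjusted p = 0.00332 by edgeR). The intronic peak at 46.3 kb (chr1:40475567-40476100), the most accessible of Il18r1, rose from 17.1 and 19.4 CPM to 22.8 and 30.3 CPM (0.62, SE 0.17, adjusted p = 0.0131 by edgeR). The intronic peak at 40.5 kb (chr1:40469911-40470257), which counts under Il1rl1 and Il18r1, rose from 7.22 and 5.92 CPM to 9.36 and 15.4 CPM (1.0, SE 0.27, adjusted p = 0.0137 by edgeR). These 5 peaks were taken as the called members with the smallest p, so that lung controls above spleen controls follow from that choice. Lung control replicate 2 was the higher of its pair at each. Without it the log2 fold change was 0.83 at -2.1 kb, 0.30 at 46.3 kb and 0.49 at 40.5 kb, and these 3 calls were lost, as they were without spleen control replicate 1, which also ended the call at 50.1 kb. An omission that leaves 1 library in a group takes the spread from the other groups and assumes that the lone library varies like them, here and wherever a control of either tissue or a lung library is left out below.

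The remaining calls included the start regions of 2 receptors. At Il18rap, the peak over the start (85.7 kb, chr1:40515082-40515525) rose from 4.81 and 3.58 CPM to 7.44 and 7.34 CPM (0.88, SE 0.28, adjusted p = 0.0315 by edgeR). At Il1rl1, the peak over the distal start (-0.3 kb, chr1:40429005-40429625) gave 2.94 and 3.03 CPM in spleen controls and 3.62 and 9.60 CPM in lung controls (1.25, SE 0.37, adjusted p = 0.0211 by edgeR). That rise rested on lung control replicate 2, since without it the log2 fold change was 0.26. The call at the Il18rap start held in 3 of the 10 fits that each left out 1 library. The peak over the start of Il18r1 (36.1 kb, chr1:40465437-40465981), which begins 22 bases beyond the end of Il1rl1, gave 12.4 and 12.7 CPM in spleen and 12.2 and 12.3 CPM in lung controls and was not called (adjusted p = 0.913 by edgeR). The other 3 called peaks, at 9.0, 87.0 and 99.9 kb, had log2 fold changes of 1.87 to 1.98. At 9.0 kb the value was 1.28 without spleen control replicate 1, and at 87.0 kb it was 0.74 without lung control replicate 2. All 3 calls were lost in both cases, although at 99.9 kb the log2 fold change was at most 2.16 and never below 1.499 under the alternatives run.

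**Figure D2:**
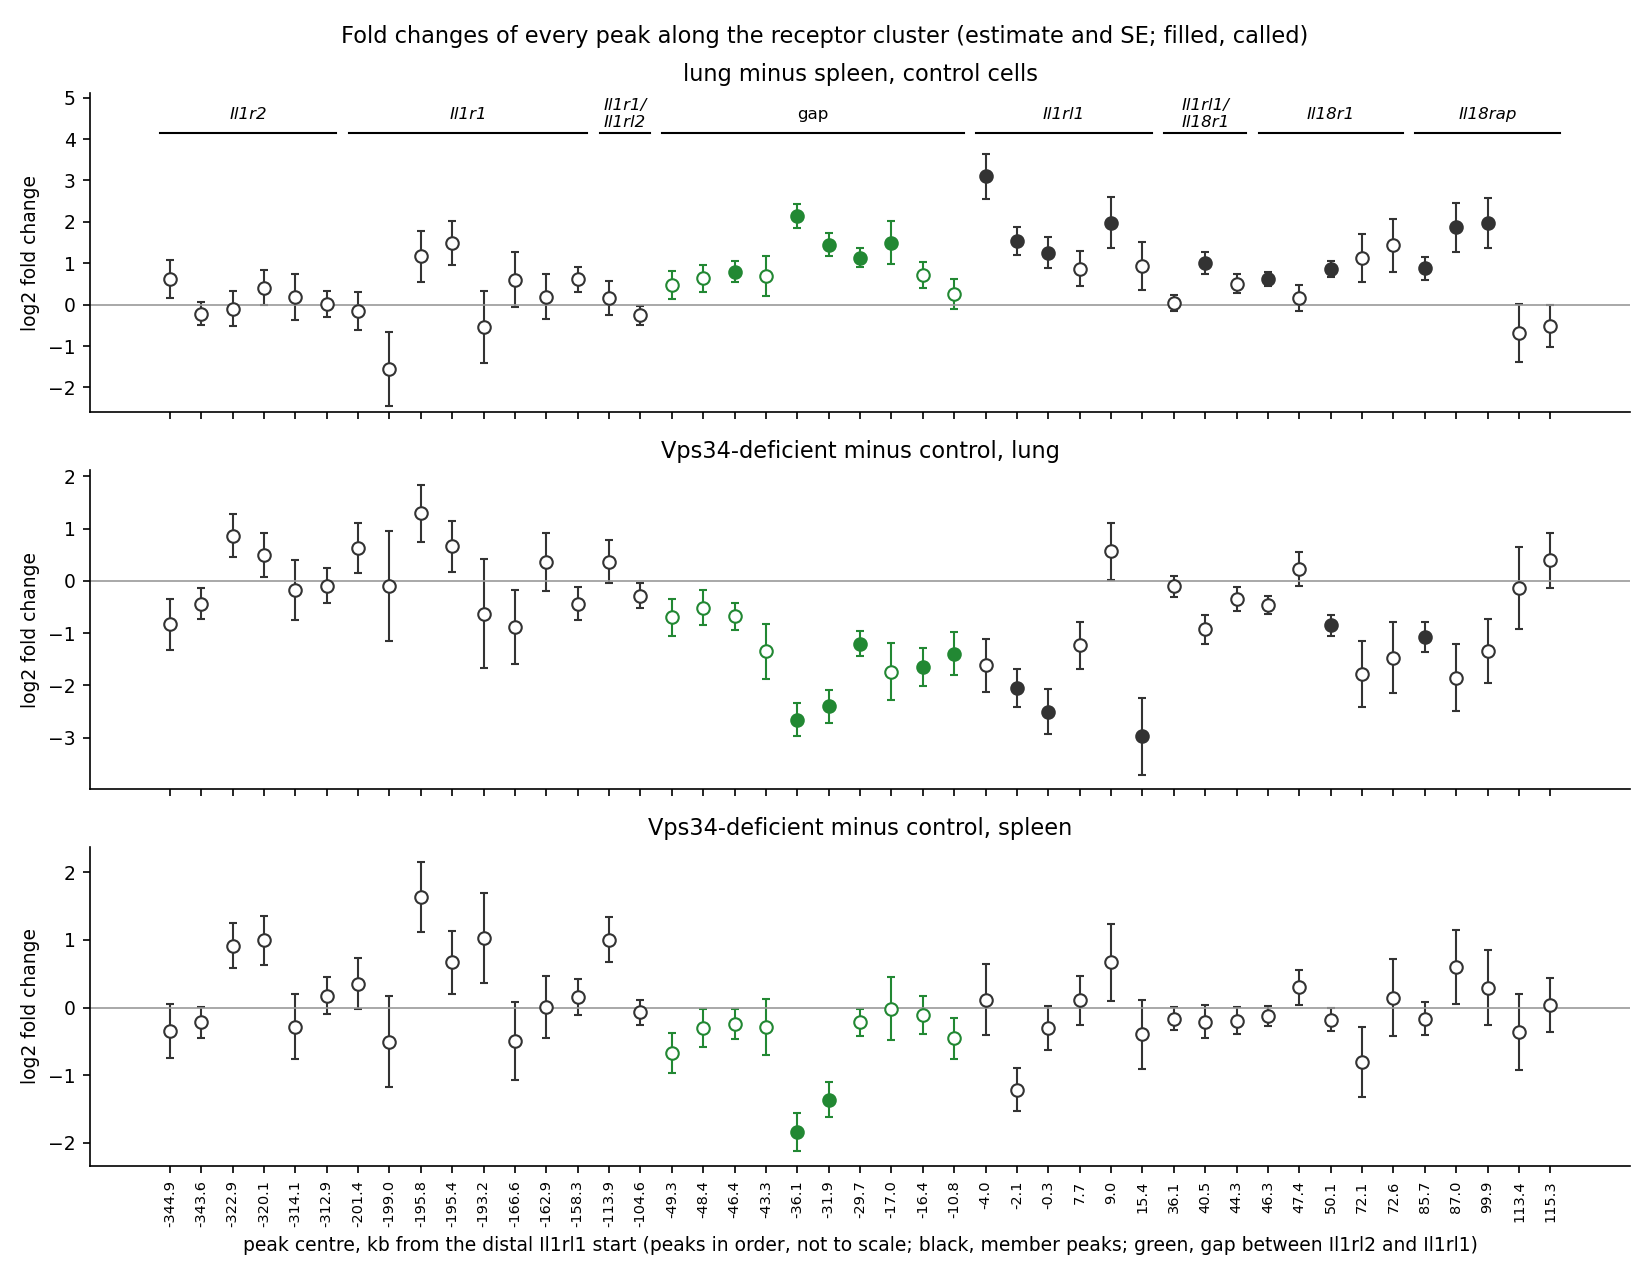
Log2 fold changes (y axes) of the 35 member peaks (black) and of the 10 peaks between Il1rl2 and Il1rl1 (green), ordered along the chromosome and labelled on the x axis by their distance in kb from the distal Il1rl1 start, for lung minus spleen controls (top), Vps34-deficient minus control in lung (middle) and in spleen (bottom). Whiskers are SE and filled points are called; the 10 black calls of the top panel all lie from -4.0 to 99.9 kb, and the 5 of the middle panel from -2.1 to 85.7 kb.

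Loss of Vps34 was then compared within lung. Of the 35 member peaks, 5 were less accessible in Vps34-deficient cells and 0 were more accessible, where 3.74% of all tested peaks were called lower and 1.22% higher. Of the 5, 3 belonged to Il1rl1, 1 to Il18r1 and 1 to Il18rap, and none to Il1r2, Il1r1 or Il1rl2. The member median of the log2 fold change was -0.44, against 0.02 over all tested peaks, and 25 of the 35 values were negative. At an unadjusted p below 0.05, 15 of the 35 member peaks differed, of which 13 lay on the side from Il1rl1 to Il18rap, and 20.3% of all tested peaks did.

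Among the annotated starts of Il1rl1, the called peak was the one over the distal start. The peak over the distal Il1rl1 start gave 3.62 and 9.60 CPM in lung controls and 1.14 and 1.27 CPM in Vps34-deficient lung, so that both mutant libraries lay below both controls and below the lowest spleen library at 2.08 CPM. Its log2 fold change was -2.51 (SE 0.43, adjusted p = 0.000897 by edgeR). The neighbouring peak at -2.1 kb fell from 6.59 and 13.2 CPM to 2.92 and 1.91 CPM (-2.05, SE 0.37, adjusted p = 0.00142 by edgeR). In an intron past the last annotated start, the small peak at 15.4 kb (chr1:40444845-40445003) fell from 1.28 and 2.96 CPM to 0.325 and 0.212 CPM (-2.97, SE 0.74, adjusted p = 0.0179 by edgeR), which were 12 and 42 counts against 4 and 2 counts. The peaks within 1 kb of the other annotated Il1rl1 starts were not called. The one at 7.7 kb (chr1:40437038-40437404) gave 3.62 and 4.38 CPM in lung controls and 1.95 and 1.48 CPM in Vps34-deficient lung (-1.23, SE 0.45, adjusted p = 0.114 by edgeR), and the one at 9.0 kb (chr1:40438455-40438664) gave 1.91 and 1.55 CPM against 3.41 and 1.69 CPM (0.56, SE 0.55, adjusted p = 0.599 by edgeR).

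Each IL-18 receptor chain had 1 called peak. The Il18r1 intron at 50.1 kb fell from 28.1 and 28.3 CPM to 16.1 and 15.6 CPM (-0.85, SE 0.20, adjusted p = 0.0108 by edgeR). The Il18rap start fell from 7.44 and 7.34 CPM to 3.90 and 3.17 CPM (-1.07, SE 0.29, adjusted p = 0.0324 by edgeR). In neither case did control and mutant libraries overlap, and the mutant values lay within the spleen range of 12.3 to 19.4 CPM at Il18r1, and 1 within and 1 below that of 3.30 to 4.81 CPM at Il18rap. The Il18rap call held in 4 of the 10 fits that each left out 1 library. The other peak near the Il18rap start, at 87.0 kb (chr1:40516436-40516650), gave 1.28 and 3.81 CPM in lung controls and 0.812 and 0.635 CPM in Vps34-deficient lung and was not called (-1.85, SE 0.64, adjusted p = 0.0944 by edgeR). Nor was the steep tissue peak at -4.0 kb, at 3.30 and 4.87 CPM against 1.62 and 1.06 CPM (-1.62, SE 0.51, adjusted p = 0.0663 by edgeR). Among the strongest sites, the intron at 46.3 kb went from 22.8 and 30.3 CPM to 19.8 and 19.5 CPM (-0.46, SE 0.17, adjusted p = 0.123 by edgeR), that at 40.5 kb from 9.36 and 15.4 CPM to 8.12 and 5.08 CPM (-0.93, SE 0.28, adjusted p = 0.0556 by edgeR), and the Il18r1 start from 12.2 and 12.3 CPM to 12.5 and 10.6 CPM (-0.10, SE 0.20, adjusted p = 0.813 by edgeR; 0.08 without lung Vps34-deficient replicate 2).

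**Figure D3:**
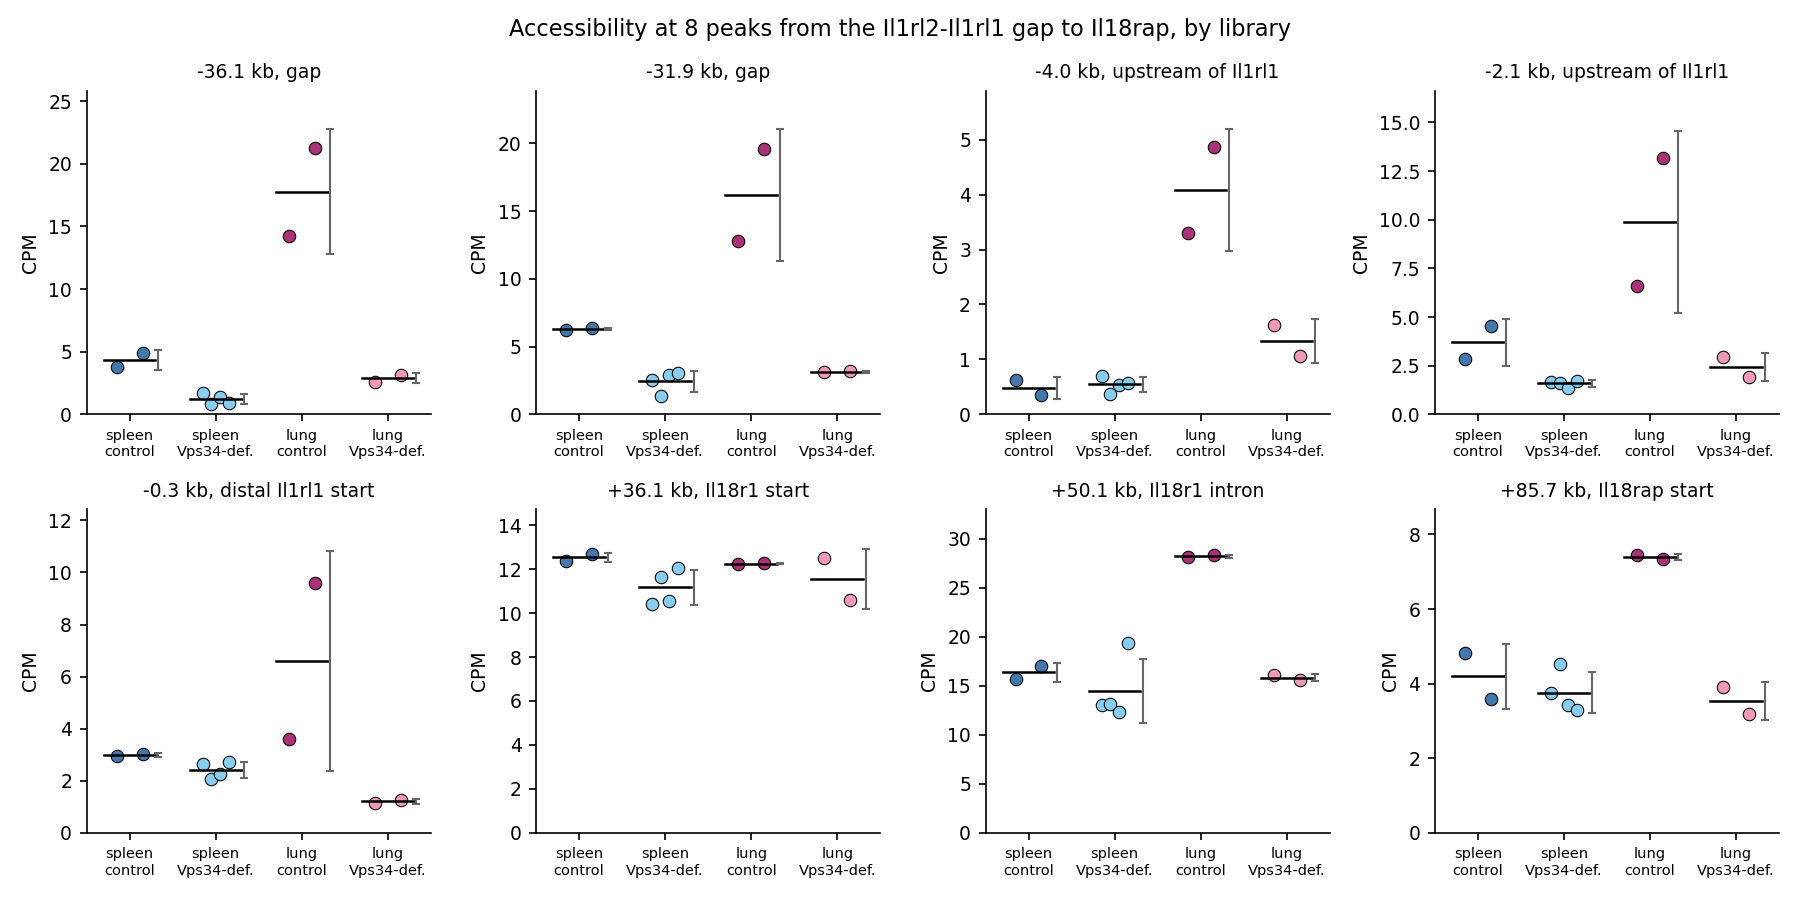
CPM (y axes, from 0) in each of the 10 libraries at 8 peaks named by distance from the distal Il1rl1 start, with the group mean (line) and SD (whisker). At -36.1 kb the lung controls give 14.2 and 21.3 CPM and the lung Vps34-deficient libraries 2.60 and 3.17 CPM, whereas at the Il18r1 start (36.1 kb) all libraries lie between 10.4 and 12.7 CPM.

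With 2 libraries in each lung group, single libraries decided much of this. Lung control replicate 2 was higher than replicate 1 over the side from Il1rl1 to Il18rap, at 164 against 127 CPM, and without it 0 of the 35 member peaks were called in lung, when 1049 of all tested peaks were still called lower. Without it the log2 fold changes were -1.41 at -2.1 kb and -1.57 at the distal Il1rl1 start, still negative and no longer called. Leaving out lung Vps34-deficient replicate 1 or 2 left 2 called members each, and leaving out lung control replicate 1 gave 6. The tissue comparison of controls varied in the same way, with 1 member called higher in lung without spleen control replicate 1 and 5 without spleen control replicate 2. Without lung control replicate 2, 3 members were called higher and 1 lower, the lower one a peak of Il1r1 at -199.0 kb. Of the members, the peak at -4.0 kb was the one called in lung against spleen controls under each omission. In both comparisons, each omission that lowered the number of called members also lowered the number called over all tested peaks, by differing amounts. The drops are therefore not particular to the cluster.

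**Figure D4:**
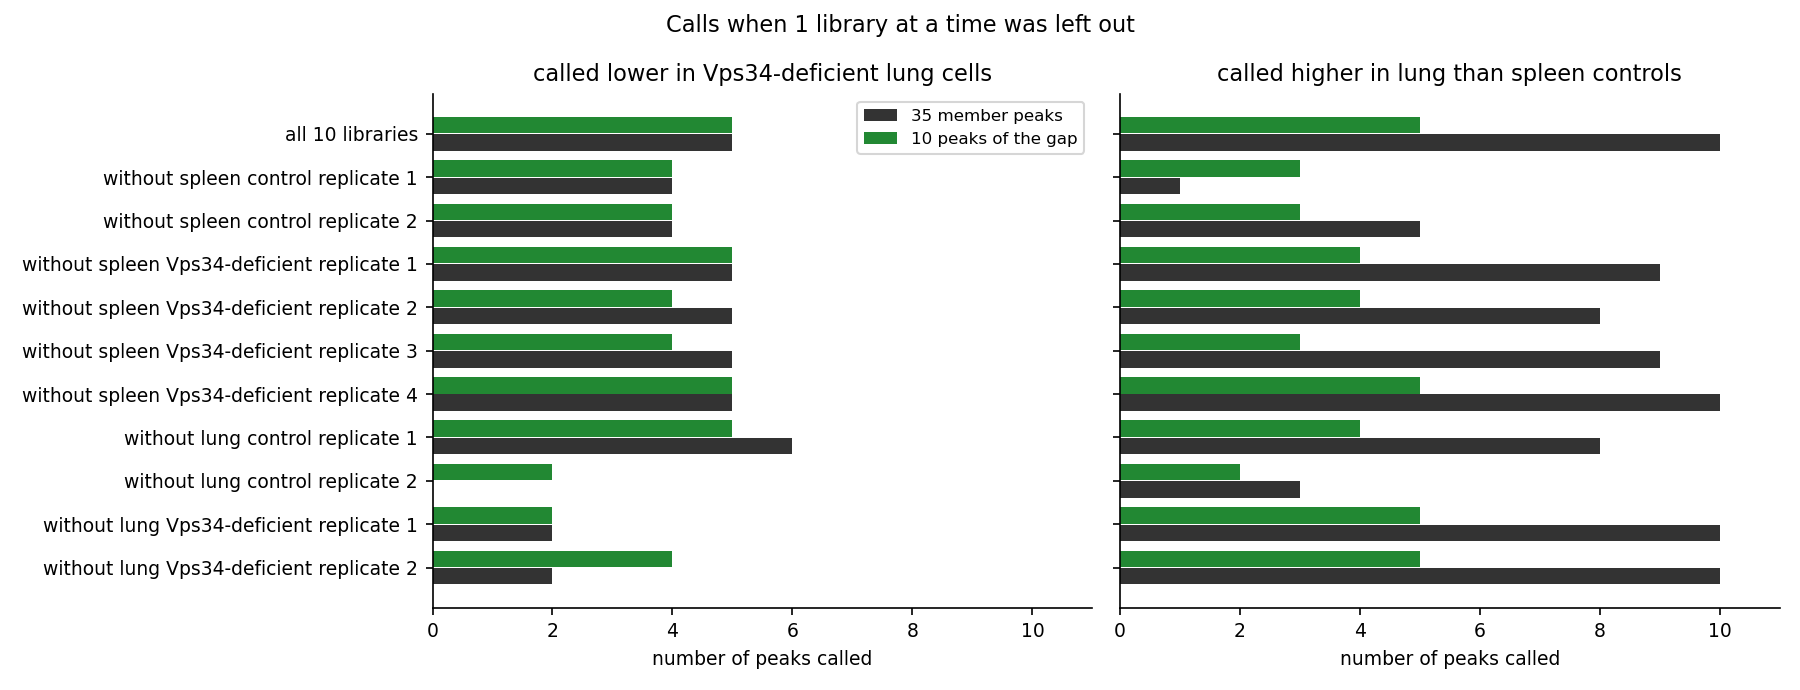
Number of peaks called (x axes) among the 35 member peaks (black) and the 10 peaks of the interval between Il1rl2 and Il1rl1 (green), with all libraries and with each library left out in turn (y axes), for the loss of accessibility in Vps34-deficient lung (left) and the gain in lung against spleen controls (right). Without lung control replicate 2, 0 member peaks and 2 interval peaks were called on the left; without spleen control replicate 1, 1 member peak was called on the right.

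The labels do not give the sex of the mice, and signal on chromosome Y split the libraries into 5 with 56.9 to 67.6 CPM and 5 with 7.03 to 21.4 CPM, with both kinds in every group. Lung control replicate 2 was of the lower kind and replicate 1 of the higher. A fit with this split as a block, added after the data were seen, called 5 members lower in lung and 10 higher in lung than spleen controls, as without the block.

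In spleen, 0 of the 35 member peaks were called in either direction by edgeR, where 0.441% of all tested peaks were higher and 1.02% lower in Vps34-deficient cells. At an unadjusted p below 0.05 by edgeR, 5 of the 35 members differed, which is the share of all tested peaks (14.3%), and DESeq2 called 1 member, the peak at -2.1 kb. That peak gave 2.85 and 4.55 CPM in control spleen, and the 4 Vps34-deficient libraries lay below both at 1.67, 1.59, 1.35 and 1.72 CPM (log2 fold change -1.21, SE 0.32, adjusted p = 0.0541 by edgeR). The distal Il1rl1 start gave 2.94 and 3.03 CPM against 2.64, 2.08, 2.26 and 2.73 CPM, a smaller step in which all 4 mutant libraries again lay below the controls (-0.30, SE 0.33, adjusted p = 0.757 by edgeR). At the remaining lung calls the genotypes overlapped in spleen. The control pair stood at 1.65 and 0.689 CPM and the 4 mutant libraries at 1.25, 0.612, 0.903 and 0.861 CPM for the peak at 15.4 kb. In the same order, the Il18r1 intron at 50.1 kb gave 15.7 and 17.0 CPM against 13.1, 13.1, 12.3 and 19.4 CPM, and the Il18rap start 4.81 and 3.58 CPM against 3.76, 4.53, 3.43 and 3.30 CPM. They also overlapped in the Il18r1 introns at 46.3 kb (17.1 and 19.4 CPM against 15.8 to 17.7 CPM) and 40.5 kb (7.22 and 5.92 CPM against 4.45 to 6.89 CPM). At the Il18r1 start the Vps34-deficient libraries lay below both controls, at 10.4 to 12.1 CPM against 12.4 and 12.7 CPM, and the peak was not called (-0.16, SE 0.16, adjusted p = 0.729 by edgeR). The other 4 members with an unadjusted p below 0.05 had higher values in Vps34-deficient cells and counted under Il1r2 or Il1r1, with 1 of them also under Il1rl2.

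Averaged over tissues, the fit found 2 members lower and 2 higher in Vps34-deficient cells, where 4.06% and 3.52% of all tested peaks were called. The 2 lower peaks were those at -2.1 kb (-1.58, SE 0.25, adjusted p = 0.000209 by edgeR) and at the distal Il1rl1 start (-1.15, SE 0.34, adjusted p = 0.0319 by edgeR). The 2 higher peaks were introns of the IL-1 receptors at the other end, and neither call held with the replicate block. In Il1r2, the decoy receptor, the peak at -322.9 kb (chr1:40106281-40107124) gave 2.05 and 2.20 CPM in spleen controls, 2.64, 3.91, 4.78 and 4.59 CPM in spleen Vps34-deficient libraries, 1.06 and 2.54 CPM in lung controls and 4.14 and 2.75 CPM in lung Vps34-deficient libraries (0.89, SE 0.26, adjusted p = 0.0298 by edgeR). In Il1r1, the signalling receptor, the peak at -195.8 kb (chr1:40233659-40233868) gave 0.446 and 0.413 CPM, then 1.25, 1.35, 1.26 and 1.58 CPM, then 0.851 and 0.988 CPM, and 3.09 and 1.48 CPM in the same order (1.48, SE 0.37, adjusted p = 0.0137 by edgeR). Its controls held 10 and 6 counts in spleen and 8 and 14 counts in lung. In both introns every Vps34-deficient library lay above every control of its tissue, and neither was called in spleen (adjusted p = 0.185 and 0.114 by edgeR) or lung (0.243 and 0.180 by edgeR) alone. The Il1r2 call was lost without spleen control replicate 1 or 2, without spleen Vps34-deficient replicate 2, 3 or 4, or without lung Vps34-deficient replicate 1, and the Il1r1 call without lung Vps34-deficient replicate 1. The call at the distal Il1rl1 start was lost without lung control replicate 2 and without either lung Vps34-deficient replicate, and that at -2.1 kb held under each omission.

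Whether the effect of Vps34 differed between tissues was tested by the interaction term. No member was called, as 0.0% of all tested peaks were lower by that term in edgeR and none higher, and 7 of the 35 members had an unadjusted p below 0.05, with a negative value at each, where 7.27% of all tested peaks did; DESeq2 called 0 members. The smallest p was at the distal Il1rl1 start, where the lung effect minus the spleen effect was -2.21 on the log2 scale (SE 0.55, adjusted p = 0.352 by edgeR). The numbers of called members in lung and spleen therefore do not show that the effects differed.

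Between Vps34-deficient lung and Vps34-deficient spleen, 2 of the 35 members were more accessible in lung and 0 less accessible, where 12.5% and 4.72% of all tested peaks were called. They were the peak at 9.0 kb in Il1rl1 (0.695, 0.734, 0.632 and 0.861 CPM in spleen against 3.41 and 1.69 CPM in lung; log2 fold change 1.87, SE 0.47, adjusted p = 0.00747 by edgeR) and an Il1r1 intron at -195.4 kb (1.81, 0.979, 1.08 and 1.44 CPM against 4.87 and 2.12 CPM; 1.48, SE 0.41, adjusted p = 0.0137 by edgeR). Both calls were lost without lung Vps34-deficient replicate 1. Over both genotypes, 6 members were more accessible in lung, against 18.4% of all tested peaks, with the peak at -4.0 kb first among them (2.18, SE 0.40, adjusted p = 0.000189 by edgeR). The tissue and genotype comparisons share the lung control libraries, so that a high value there raises one and lowers the other.

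At the edge of the 10 kb limit, the member farthest from its nearest gene was the peak at -4.0 kb described above, 3850 bases before Il1rl1. Members that also counted under a second gene reached farther from that one, up to 8724 bases, for a peak in Il1r1 that counts under Il1rl2. Just outside, the peak at -10.8 kb, 10648 bases before Il1rl1 (chr1:40418519-40418922), gave 3.30 and 3.03 CPM in spleen controls, 1.72 to 2.92 CPM in spleen Vps34-deficient libraries, 3.19 and 3.95 CPM in lung controls and 1.30 and 1.48 CPM in lung Vps34-deficient libraries. It was 1 of 10 peaks in the intergenic interval between Il1rl2 and Il1rl1, which were described on their own after their values were seen and are not members.

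In that interval, 5 of 10 peaks were called lower in Vps34-deficient lung (3.74% of all tested peaks) and 2 in Vps34-deficient spleen (1.02%), none was called higher, and all 10 fold changes were negative in both tissues. The peak at -36.1 kb (chr1:40393192-40393759) gave 3.74 and 4.89 CPM in spleen controls, 1.67, 0.856, 1.35 and 0.861 CPM in spleen Vps34-deficient libraries, 14.2 and 21.3 CPM in lung controls and 2.60 and 3.17 CPM in lung Vps34-deficient libraries. Both Vps34-deficient groups lay wholly below their controls, with log2 fold changes of -1.84 in spleen (SE 0.29, adjusted p = 0.000728 by edgeR) and -2.66 in lung (SE 0.32, adjusted p = 1.83e-05 by edgeR). The peak at -31.9 kb (chr1:40397396-40397853) gave 6.24 and 6.34 CPM, then 2.50, 1.35, 2.89 and 3.02 CPM, then 12.8 and 19.6 CPM, and 3.09 and 3.17 CPM in the same order (-1.36, SE 0.26, adjusted p = 0.00558 in spleen, and -2.40, SE 0.31, adjusted p = 5.08e-05 in lung, by edgeR). These 2 peaks were called in lung under every omission of 1 library, lung control replicate 2 included, and that at -36.1 kb also in spleen; the call at -31.9 kb in spleen was lost without spleen control replicate 1 or 2. The other 3 lung calls of the interval, at -29.7, -16.4 and -10.8 kb, were each lost without lung control replicate 2 or lung Vps34-deficient replicate 1, and that at -10.8 kb also without lung Vps34-deficient replicate 2, either spleen control, or spleen Vps34-deficient replicate 2 or 3. The call at -10.8 kb held in 6 of 19 fits in all, and was also lost with library size or median-of-ratios scaling, halved counts, DESeq2, the replicate block and the libraries of 1 tissue alone. Summed over the 10 peaks, the interval gave 50.5 and 52.4 CPM in spleen controls, 32.4 to 40.3 CPM in spleen Vps34-deficient libraries, 82.9 and 119 CPM in lung controls, and 36.6 and 45.1 CPM in lung Vps34-deficient libraries.

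The start peaks of the 3 genes at the other end did not pass the test in lung. The stronger Il1r2 start peak, at -343.6 kb (chr1:40085714-40086151), gave 4.25 and 7.20 CPM in lung controls and 3.57 and 5.29 CPM in Vps34-deficient lung (-0.44, SE 0.30, adjusted p = 0.428 by edgeR), and the other, at -344.9 kb (chr1:40084497-40084775), 2.13 and 4.09 CPM against 0.975 and 2.75 CPM (-0.83, SE 0.49, adjusted p = 0.347 by edgeR). At Il1rl2, whose start peak at -104.6 kb (chr1:40324411-40325627) lies over 4 annotated starts, lung controls gave 5.95 and 7.34 CPM, and Vps34-deficient lung 5.85 and 5.29 CPM (-0.28, SE 0.24, adjusted p = 0.536 by edgeR). Il1r1 had a peak at its second start (-162.9 kb, chr1:40266471-40266817) and none at its first, with 2.55 and 0.847 CPM against 1.95 and 2.33 CPM (0.36, SE 0.55, adjusted p = 0.754 by edgeR). In spleen, the stronger Il1r2 start peak had control values of 6.42 and 7.99 CPM against 5.63 to 6.60 CPM with Vps34 deleted, the other 2.32 and 2.00 CPM against 1.15 to 2.23 CPM, the Il1rl2 start peak 8.38 and 8.54 CPM against 7.79 to 8.32 CPM, and the Il1r1 start peak 1.25 and 1.79 CPM against 1.005 to 2.50 CPM, and none was called. In lung, the control and mutant pairs overlapped at each of these 4 peaks except that of Il1rl2, where both mutant values lay below both controls. Without lung control replicate 2 the log2 fold change turned to 0.06 at the stronger Il1r2 start peak and to -0.24 at the Il1r1 start peak.

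The letters of 8 motifs were counted on both strands in windows of 300 bases centred on the peaks, which reach beyond the peak itself at the 15 members narrower than that, as a description and with no claim of binding. Of the 35 members, 7 held the AP-1 letters (13% of the 96974 tested peaks that could be read), 5 the GATA letters (15.1%), 5 the NF-kB letters (17.2%), 6 the STAT letters (9.3%), 15 TGTGGT (RUNX; 26.5%), 4 TCACAC (T-box; 18.7%), 7 TGTTTA (forkhead; 16.9%) and 16 GGAAGT (ETS; 26.9%). Cut to the bases of the window that lie inside the peak, these counts were 6, 5, 5, 5, 14, 3, 6 and 16 in the same order. Of the 5 members called lower in lung, 3 held the RUNX, 3 the ETS, 2 the GATA, 1 the AP-1, 1 the NF-kB and 1 the forkhead letters inside both window and peak, and the peak at 15.4 kb, 159 bases long, held none of the 8. Bases of wider peaks outside the window were not counted, and the stretch printed for the distal Il1rl1 start, which reaches beyond its window, holds 1 further forkhead match. The 2 with GATA letters are the peaks at -2.1 kb and at the distal Il1rl1 start printed above, and the Il18r1 intron at 50.1 kb held the NF-kB and AP-1 letters within the printed bases. In the interval, the peak at -36.1 kb held 1 AP-1 and 2 RUNX matches and that at -31.9 kb 1 GATA and 1 RUNX match; 3 of the 5 interval peaks called lower in lung held GATA letters, with 6 matches in all.

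Other genes of the pathway were read from lists of ligands, remaining receptor chains and signalling proteins. Around the ligands and soluble regulators, 7 genes had a peak (Il33, Il18, Il1a, Il1b, Il1rn, Il1f9 and Il18bp) and Il1f5, Il1f6, Il1f8 and Il1f10 had none, and 0 of 16 peaks were called between genotypes in spleen or in lung by edgeR, with 0 and 2 at an unadjusted p below 0.05, where 14.3% and 20.3% of all tested peaks were. Around Il1rap, the shared accessory chain, Il1rapl1, Il1rapl2 and Sigirr, 1 of 26 peaks was higher in Vps34-deficient lung (1.22% of all tested peaks) and 8 were higher in lung than spleen controls (11.8% of all tested peaks), 7 of these at Il1rapl1 and Il1rapl2. Around 14 signalling genes, 73 peaks gave 1 lower peak in spleen, and 3 lower and 1 higher in lung, shares close to those over all tested peaks (1.02%, 3.74% and 1.22%).

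The lowest adjusted p among these calls was at Irak2, a kinase that carries the signal of these receptors. An exonic peak 34.7 kb into the gene (chr6:113673033-113673287) gave 8.51 and 7.64 CPM in spleen controls, 1.39, 1.10, 1.26 and 2.30 CPM in spleen Vps34-deficient libraries, 11.3 and 12.8 CPM in lung controls and 2.60 and 3.60 CPM in lung Vps34-deficient libraries. The genotype groups lay apart in both tissues (-2.44, SE 0.26, adjusted p = 5.34e-06 in spleen, and -2.0, SE 0.31, adjusted p = 0.000301 in lung, by edgeR). A second Irak2 peak, intronic and 41.3 kb into the gene (chr6:113679612-113679917), fell in lung from 3.40 and 3.67 CPM to 1.14 and 1.48 CPM (-1.47, SE 0.41, adjusted p = 0.0372 by edgeR), a call lost under 6 of the 10 omissions of 1 library (without either spleen control or any lung library), and 10 further Irak2 peaks were not called in lung. The other signalling peaks called within a tissue were in lung, at Irak3, a brake on this signal (-0.61, SE 0.17, adjusted p = 0.0373 by edgeR), and at Ikbkb, which encodes an NF-kB kinase (0.69, SE 0.18, adjusted p = 0.0202 by edgeR). The receptor chain peak called in lung was at Il1rapl2 (1.10, SE 0.23, adjusted p = 0.00559 by edgeR). Averaged over tissues, 3 of 26 receptor chain peaks were called higher, at Il1rap and Il1rapl2. So were 3 of 73 signalling peaks, at Irak4, Tab2 and Ikbkb (3.52% of all tested peaks). The 2 signalling peaks called lower in that average were those of Irak2 (4.06% of all tested peaks).

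The genes that flank the cluster, Map4k4 on one side and Slc9a4, Slc9a2, Mfsd9 and Tmem182 on the other, had 39 peaks within 10 kb that were not members, of which 0 were called in lung between genotypes by edgeR (5 at an unadjusted p below 0.05, against 20.3% of all tested peaks) and 1, near Map4k4, was higher in Vps34-deficient spleen (0.441% of all tested peaks). Over the 10 libraries and 12209 genes with at least 3 tested peaks, the summed accessibility most like that of Il1rl1 outside the cluster was that of Ncoa6 (Pearson r = 0.98), Thbs3 (0.97), Mtx1 (0.96), Muc1 (0.96) and Lamc1 (0.96); Thbs3, Mtx1 and Muc1 are neighbours and share peaks, so that their 3 values are not separate.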

How the data were processed

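ATAC-seq libraries of sorted Tregs from spleen and lung were sequenced as read pairs. The authors trimmed and aligned reads, kept nucleosome-free fragments after correction for the Tn5 offset, called peaks, merged peaks found in at least part of the replicates and deposited one table of raw counts per peak for 10 libraries. The submitters' processing notes name cutadapt 1.9, Picard 1.65, SAMtools, MACS2 2.1.0.20150603, bedtools and the builds mm10 and GRCm38. Peaks were merged over groups, so a site absent from one group still has a count there, while a site open in a few libraries alone may be missing. Between 91.5% and 96.5% of the deposited counts were even, as when both mates of a pair are counted, so that counts overstate the number of fragments; halved counts were an alternative.

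Annotated starts from GENCODE M21 fell in a peak for 51.2% of 21951 starts, and for 2.67% to 2.94% when positions were shifted, and positions were therefore read as GRCm38. All 10 columns were matched to samples by name. Levels were computed here as CPM, the count over the library total (9405823 to 22439699 counts) times 1000000. All 97385 peaks entered edgeR 4.0.16 (R 4.3.3) with edgeR's default low-count filter (97109 kept, all 35 members among them), TMM scaling and 1 fit over the 4 groups, tested with edgeR's quasi-likelihood test and Benjamini-Hochberg adjustment. Calls needed an adjusted p under 0.05 together with a log2 fold change beyond 0.5 in either direction. Replicate libraries differed by a coefficient of variation of 17.79%. The fit was also run on simulated counts as a check of its code, on which no result here rests.

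Peaks were named by 1 rule, which took the strongest peak and the start peaks of each gene, each member called between genotypes, and the 5 members with the smallest p among those called between control tissues. The members, the gene lists and this rule were chosen with earlier results of these data known. Alternatives were other scalings, filters, DESeq2 1.42.0, a replicate block, separate fits, other windows and the omission of each library.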

Additional observations from a re-analysis of the deposited data

Results flagged for a closer look

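Among 28 quantities examined in the 4 spleen Vps34-deficient libraries, the only group large enough for the check, 1 library stood apart in 2. At the Il18r1 intron 50.1 kb from the Il1rl1 start, spleen Vps34-deficient replicate 4 gave 19.4 CPM and the other 3 libraries 12.3 to 13.1 CPM, so that its gap to the nearest library was 0.886 of the whole range, above the critical value of 0.829. For the Il18r1 sum, which contains that peak, the same library gave 69.9 CPM against 60.9 to 62.4 CPM, a gap of 0.838 of the range. Chance marks about 1 in 20 groups in this way.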

How the results depend on the processing

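Counts below are members called in the 35 peaks. With library size scaling, median-of-ratios scaling, no filter on counts, halved counts, the libraries of 1 tissue alone, DESeq2, or the chromosome Y block that was added after the data were seen, 1 member was called lower in spleen in place of 0, the peak at -2.1 kb. Over all tested peaks, these settings called 1019 to 1798 lower in spleen in place of 994. The libraries of 1 tissue alone gave 3 lower in lung in place of 5, and the libraries of 1 genotype alone gave 5 higher in lung than spleen controls in place of 10, and 1 lower in the Vps34-deficient tissue comparison in place of 0. Over all tested peaks, these fits gave 1684 in place of 3632, 7880 in place of 11489, and 5137 in place of 4583 in the same order. Gene bodies alone left 1 lower peak averaged over tissues in place of 2. A window of 50 kb, which takes in the interval before Il1rl1 and flanking genes, gave 1 higher and 2 lower in spleen, 10 lower in lung, 5 lower averaged over tissues, 17 higher and 1 lower for tissue in controls, 4 higher and 1 lower for tissue in Vps34-deficient cells, and 11 higher and 1 lower for tissue over both genotypes.

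Libraries that share a replicate number did not deviate together (r from -0.098 to 0.064), so the numbers were not taken to pair them. With the replicate block, 3 members were lower in lung, 0 were higher averaged over tissues, 5 were higher in lung than spleen controls, and 0 were higher in the Vps34-deficient tissue comparison. Over all tested peaks, the block gave 2310 in place of 3632, 2247 in place of 3416, 9087 in place of 11489, and 5040 in place of 12095 in the same order. The spleen call at -36.1 kb, outside the members, was lost under the replicate block (log2 fold change -1.75, adjusted p = 0.0569 by edgeR).

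Leaving out 1 library at a time gave 0 to 1 lower and 0 to 0 higher in spleen, 0 to 6 lower and 0 to 0 higher in lung, 1 to 3 lower and 0 to 3 higher averaged over tissues, 1 to 10 higher and 0 to 1 lower for tissue in controls, 0 to 3 higher and 0 to 1 lower for tissue in Vps34-deficient cells, 4 to 7 higher and 0 to 2 lower for tissue over both genotypes, and 0 to 0 for the interaction. The lung fold change changed sign at the Il1r2 start peak (-0.646 to 0.0628), the Il1r1 start peak (-0.24 to 1.40) and the Il18r1 start peak (-0.161 to 0.0846). The causes were not tested. With 2 libraries in 3 of the 4 groups and 4 in the other, weak peaks such as that at 15.4 kb, with 2 to 42 counts in the lung libraries, have wide errors.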
